A study of Mus musculus with 40 samples.

Results

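The comparison described here sets the livers of male mouse fetuses whose dams had both more fat and more folic acid against those whose dams had the plain control diet. The 10 libraries were chosen by their diet and sex labels alone, from 40 libraries in all. The WDF group (5 males) came from dams given 45% of calories as fat with 10 mg/kg folic acid, and the CD group (5 males) from dams given 10% of calories as fat with 2 mg/kg folic acid. All fetuses were C57BL/6 and were taken on gestational day 18.5, and all dams had been on their diet for 13 weeks before mating and stayed on it during pregnancy. The series describes the 45% fat diet as a model of diabetes in pregnancy. Male groups with only 1 of the 2 changes, WD (45% fat, 2 mg/kg) and CDF (10% fat, 10 mg/kg), had 5 libraries each, and the same 4 diets were sampled in females. The question addressed is what still differs from the plain control when both diet factors change. Dams and litters are not identified in the labels, and fetuses from 1 litter may be among the 5 of a group, so each p-value reflects the variation among fetuses only.

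Close to birth the liver is both a metabolic organ and a site of blood formation. Its hepatocytes make fatty acids and cholesterol from acetyl-CoA, and the transcription factors of the SREBP family drive both sets of enzymes, held back by sterols and, for fat synthesis, raised by insulin. Fatty acid burning is largely under the nuclear receptor PPARalpha, which fatty acids activate. Folic acid is the synthetic form of folate, and folates carry the carbon units used for nucleotide and methyl group synthesis. Beside hepatocytes the tissue holds red cell precursors, megakaryocytes (the parent cells of platelets), bile duct cells and a covering mesothelium. In bulk tissue, fewer cells of a type and less RNA per cell cannot be told apart.

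Values below are the authors' normalized read counts, which summed to between 16287963 and 20808535 in the CD males and between 17244386 and 18346597 in the WDF males. Alb (albumin) ranged from 641907 to 1456300 over the 10 libraries, so the liver label held in each. The library labelled CD replicate 4 stood apart from the others: it had the lowest Alb, a score of 95.0 on the first principal component (the other 19 male libraries lay between -52.2 and 42.6) and a mean correlation with them of 0.918. The lung surfactant gene Sftpc was 4012 in CD replicate 5 and 5978 in WDF replicate 2, and at most 133 in the other 8 libraries. Summed skeletal and heart muscle markers were 729 and 682 in CD replicate 4, and 514 and 469 in WDF replicate 2. They were 322 and 318 in WDF replicate 4, and at most 251 and 214 in the rest of the 10. For most of the gene lists described, counts or medians are therefore given again without 3 libraries. These are CD replicate 4, CD replicate 5 and WDF replicate 2, a setting chosen after the data were seen.

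No gene differed between WDF and CD males past an adjusted p of 0.05 by limma on log2(value + 1), with 0 of 14783 genes tested, and limma-voom on the same values also called 0. The smallest adjusted p was 0.162. At an unadjusted p under 0.05, 271 genes were higher in WDF (1.83% of those tested) and 357 were lower (2.41%). Both directions together, 628 genes, were a smaller share of the 14783 tested than the 0.05 that chance alone would give. In 72 genes (0.487%) every WDF library lay above every CD library, and in 89 genes (0.602%) every one lay below. With 5 libraries against 5, chance alone also separates some genes fully, at shares of the same order though lower. A lack of overlap in a single gene is therefore weak evidence of a difference. The same fit without CD replicate 4 had 2 genes past the threshold, Abhd5 and Sqle, and 756 genes higher and 776 lower at an unadjusted p under 0.05. Without the 3 libraries named above, Sqle was called lower and mt-Co3 and the pseudogene Usf2-ps1 higher. With a weight estimated for each library (0.156 for CD replicate 4, the lowest of the 20), 131 genes were called higher and 160 lower. What follows are therefore differences in level and their errors, of which none passed the test over all genes in the 20-library fit. Genes named for a small p were chosen from these same libraries, so a lack of overlap in them is no separate evidence.

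**Figure D1:**
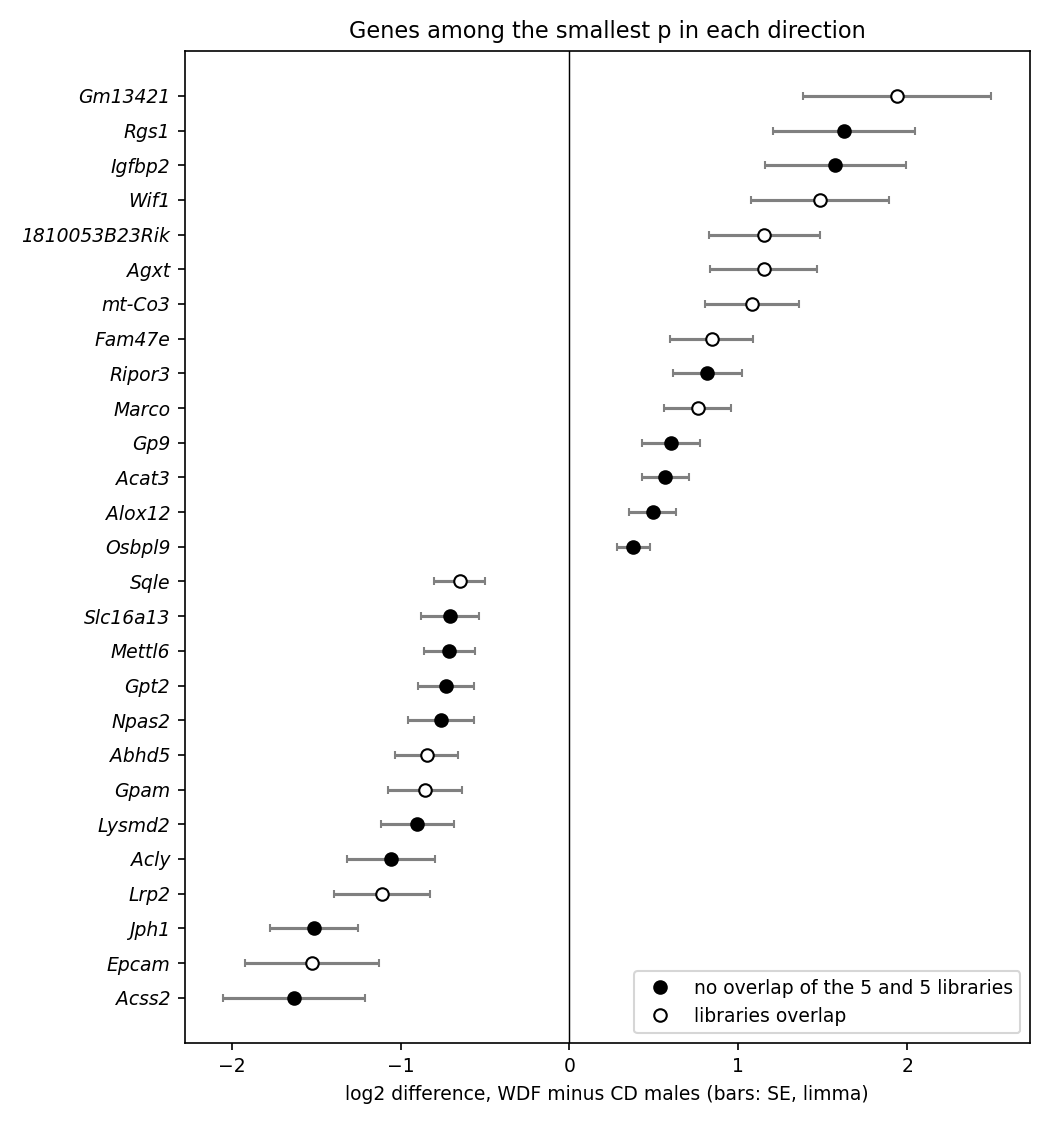
Log2 difference between WDF and CD males (x axis, bars are SE from limma) for 27 of the 30 genes with the smallest p, 15 in each direction. The pseudogene Rpl35a-ps3, listed at 0 in every WDF library, is among those left out. Filled points mark genes whose 5 WDF and 5 CD libraries did not overlap; Acss2 and Epcam lay lowest, at -1.63 and -1.53, and Igfbp2 was at 1.57.

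Among the 15 genes with the smallest p on the lower side, several belong to lipid metabolism, among them Acss2, Acly and Gpam of fatty acid and triglyceride synthesis, Sqle of cholesterol synthesis, and the lipolysis cofactor Abhd5. Of the 26 genes listed for fatty acid and triglyceride synthesis, all tested, 24 were lower in WDF and 2 higher, with a median log2 difference of -0.46, against 49.2% of all genes below 0 and a median of all genes of 0.00. At an unadjusted p under 0.05, 13 of the 26 were lower and 0 higher, and in 6 the libraries did not overlap. Among all genes tested, 2.41% were lower at that level and 0.602% were lower without overlap. With the 3 libraries left out, 23 were lower and 3 higher, with a median of -0.54.

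Acss2, which makes cytosolic acetyl-CoA from acetate, was 4977, 4007, 3390, 2135 and 3786 in CD replicates 1 to 5 and 1164, 1794, 873, 808 and 1305 in WDF replicates 1 to 5. Every WDF library was below the lowest CD library, which was replicate 4. The means were 3659 ± 1033 and 1189 ± 395 (SD, n = 5 each), a log2 difference of -1.63 ± 0.42 (SE), with an adjusted p of 0.700 by limma. Acly, the ATP citrate lyase that makes acetyl-CoA from citrate, was 9062, 7191, 6938, 4900 and 7297 in CD and 3872, 4530, 3042, 3072 and 2522 in WDF. The groups again did not overlap, although CD replicate 4 and WDF replicate 2 were close, and the log2 difference was -1.06 ± 0.26, with an adjusted p of 0.700 by limma as well. Me1, the malic enzyme that supplies NADPH for fat synthesis, was 886, 879, 601, 474 and 718 in CD and 266, 382, 279, 197 and 177 in WDF. That is 2.73-fold lower in WDF by the means, with no overlap and a log2 difference of -1.46 ± 0.38.

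Transcripts of enzymes that act on fatty acids once made were lower as well. Scd1, which places the first double bond, was 11538, 9574, 7622, 5883 and 8814 in CD and 3953, 5666, 3420, 2850 and 3414 in WDF (log2 difference -1.17 ± 0.42), with no overlap. Fads2 and Fads1, the desaturases of polyunsaturated fatty acids, averaged 6556 ± 1764 and 6274 ± 960 in CD and 2865 ± 650 and 3726 ± 523 in WDF (n = 5 each), and neither overlapped. Gpam, which starts triglyceride synthesis, was 7359, 6394, 6023, 4822 and 5739 in CD and 4083, 4909, 2704, 3119 and 2407 in WDF (-0.85 ± 0.22). In Gpam only CD replicate 4 and WDF replicate 2 crossed. Thrsp, a protein tied to lipogenesis, ranged from 87.3 to 281 in CD and from 7.42 to 106 in WDF (-2.95 ± 0.98), and its highest WDF library was again replicate 2.

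The rate-setting carboxylase and the synthase themselves were less far apart. Acaca, the acetyl-CoA carboxylase, was 1251 ± 263 in CD and 804 ± 99.8 in WDF (n = 5 each, log2 difference -0.62 ± 0.21), with WDF replicate 2 (958) above CD replicate 4 (927). Fasn, the fatty acid synthase, was 6500, 4926, 4388, 2416 and 8358 in CD and 2765, 3870, 5048, 2989 and 4325 in WDF. Its groups overlapped widely (-0.40 ± 0.32). Srebf1, the gene of the SREBP-1 transcription factor, was 2554 ± 538 against 2089 ± 185 (n = 5 each, -0.27 ± 0.17), a difference within the spread of the CD libraries.

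**Figure D2:**
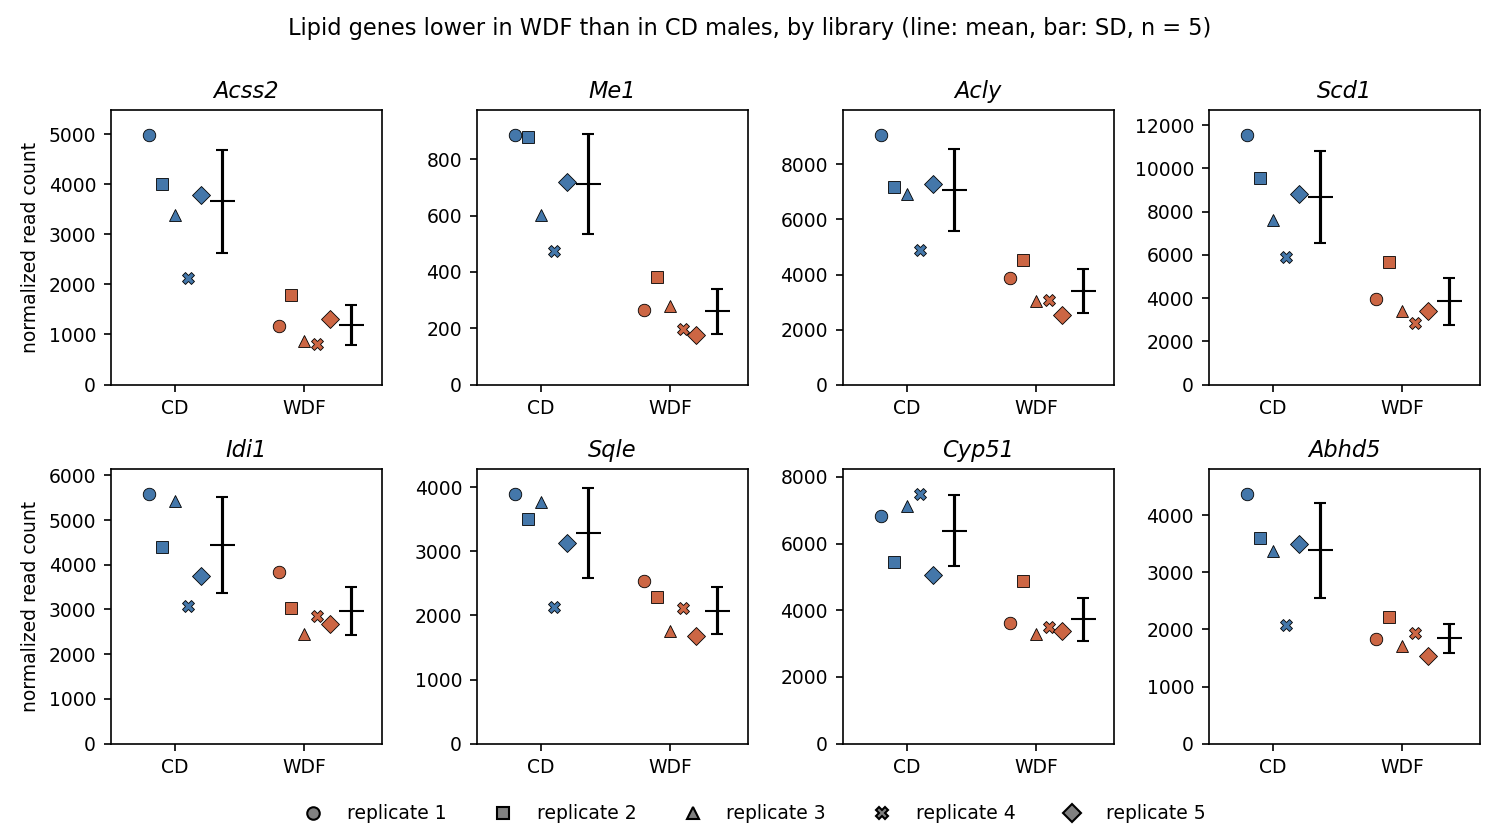
Normalized read counts (y axis, from 0) of 8 lipid genes in each of the 5 CD and 5 WDF male libraries, with the mean as a line and the SD as a bar; the symbol shows the replicate number. In Acss2, Me1, Acly, Scd1 and Cyp51 all WDF points lie below all CD points, while in Idi1, Sqle and Abhd5 CD replicate 4 reaches into the WDF range, as does CD replicate 5 in Idi1.

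Most transcripts of cholesterol synthesis and uptake were lower in WDF. Of 25 genes of cholesterol synthesis and uptake, all tested, 24 were lower in WDF and 1 higher, with a median log2 difference of -0.55. At an unadjusted p under 0.05, 17 were lower and 0 higher, and 6 did not overlap between the groups. The lower shares over all genes were 2.41% and 0.602%. Without the 3 libraries named above, 24 were lower with a median of -0.71, 19 of these at an unadjusted p under 0.05.

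Promoter sequences of 4 genes of the list are shown as examples. SREBP-2 is known to act on promoters of this pathway beside the CCAAT-binding factor NF-Y. Each line holds the 250 bases before the RefSeq start (GRCm38.p6, 5′ to 3′ on the gene's strand). Capitals mark CCAAT and CACNCCAC, the core letters of the sterol regulatory element, on either strand; the motifs do not overlap in these windows. Hmgcs1 lies at chr13:119690101-119690350 on the plus strand, Idi1 at chr13:8885356-8885605 on the plus strand, Msmo1 at chr8:64733579-64733828 on the minus strand and Acat2 at chr17:12960726-12960975 on the minus strand.
Hmgcs1: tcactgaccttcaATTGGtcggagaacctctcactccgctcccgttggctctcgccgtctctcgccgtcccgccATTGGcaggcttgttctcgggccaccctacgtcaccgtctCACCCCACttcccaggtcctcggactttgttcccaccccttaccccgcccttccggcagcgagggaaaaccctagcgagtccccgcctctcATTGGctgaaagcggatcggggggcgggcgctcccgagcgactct
Idi1: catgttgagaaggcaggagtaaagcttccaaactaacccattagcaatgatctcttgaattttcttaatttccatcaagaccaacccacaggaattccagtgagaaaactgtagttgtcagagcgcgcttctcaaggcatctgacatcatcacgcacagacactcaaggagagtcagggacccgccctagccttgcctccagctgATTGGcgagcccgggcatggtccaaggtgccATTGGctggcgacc
Msmo1: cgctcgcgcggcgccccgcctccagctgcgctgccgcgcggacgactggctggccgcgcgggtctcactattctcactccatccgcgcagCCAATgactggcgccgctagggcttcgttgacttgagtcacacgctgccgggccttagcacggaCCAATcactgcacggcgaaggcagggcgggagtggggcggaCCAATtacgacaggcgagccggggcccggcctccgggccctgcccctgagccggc
Acat2: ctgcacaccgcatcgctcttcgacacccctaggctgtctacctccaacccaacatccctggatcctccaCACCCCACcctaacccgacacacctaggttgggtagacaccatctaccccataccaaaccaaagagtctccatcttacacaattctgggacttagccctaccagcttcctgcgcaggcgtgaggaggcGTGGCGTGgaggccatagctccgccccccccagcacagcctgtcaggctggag
The Hmgcs1 window has 3 matches to CCAAT and 1 to CACNCCAC, that of Idi1 has 2 to CCAAT, that of Msmo1 has 3 to CCAAT, and that of Acat2 has 2 to CACNCCAC and 0 to CCAAT. RefSeq windows were found for 17 of the 25 genes (20 windows), and 16 of the 17 had a CCAAT match, or 80% of the windows. Among all 32851 windows of the same length 33.8% had one. CACNCCAC was in only 3 of the list's 20 windows (15%), those of Hmgcs1 and Acat2 shown above among them, and in 5.29% of all windows. For fatty acid and triglyceride synthesis, 21 of 26 genes had windows, and CCAAT was in 51.9% of them. Of 12 windows of megakaryocyte genes 25% had a CCAAT match. These matches describe letters only, and whether SREBP-2 or NF-Y had a part in the differences was not tested.

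Hmgcs1, which makes the HMG-CoA that starts the pathway, was 17222, 13945, 15354, 9285 and 13313 in CD and 10866, 10033, 8307, 8927 and 9148 in WDF (log2 difference -0.52 ± 0.17). For Hmgcs1 CD replicate 4 was the one control inside the WDF range. Idi1, the isomerase of the isoprenoid units, was 5574, 4389, 5419, 3068 and 3737 in CD and 3829, 3028, 2443, 2856 and 2669 in WDF (-0.56 ± 0.16), with CD replicates 4 and 5 inside the WDF range. Mvd, the mevalonate pathway decarboxylase, was 1472 ± 318 against 821 ± 332 (n = 5 each, -0.90 ± 0.31), with 1357 in WDF replicate 2 and at most 863 in the other 4.

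Transcripts of the later steps, from squalene to cholesterol, were lower too. Sqle, the squalene epoxidase, was 3886, 3496, 3766, 2137 and 3134 in CD and 2540, 2286, 1762, 2107 and 1672 in WDF (log2 difference -0.65 ± 0.15). Without CD replicate 4 its difference was -0.80 ± 0.13, with an adjusted p of 0.0341 by limma. Cyp51, the lanosterol demethylase, was 6832, 5435, 7132, 7479 and 5069 in CD and 3625, 4876, 3302, 3500 and 3368 in WDF, with no overlap (-0.77 ± 0.22). Here CD replicate 4 had the highest value of all, unlike in the other genes of this paragraph. Msmo1, the next sterol demethylase, was 3030 ± 394 against 2275 ± 272 (n = 5 each, -0.41 ± 0.13), with 2508 in CD replicate 4 and 2515 in WDF replicate 1.

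Acat2, a cytosolic thiolase that joins acetyl-CoA units for the same pathway, and its neighbour Acat3 on chromosome 17 pointed opposite ways; Acat2 was picked out after its values were seen. Acat2 was 2905, 2510, 2597, 2713 and 2451 in CD and 1735, 2229, 1569, 1693 and 1515 in WDF (log2 difference -0.60 ± 0.21), with no overlap. Acat3, which had the smallest p on the higher side, was 429, 476, 353, 545 and 471 in CD and 834, 630, 604, 742 and 563 in WDF (0.57 ± 0.14), also with no overlap. The genes lie side by side (Acat3 from 12923813 to 12940600 and Acat2 from 12942890 to 12960747, mm10, minus strand) and are related copies, so how the authors' counting split reads between them is uncertain.

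Genes of fatty acid oxidation and PPARalpha targets were on the other side of 0. Of 33 such genes, all tested, 27 were higher in WDF and 6 lower (50.8% of all genes were higher), with a median log2 difference of 0.18. At an unadjusted p under 0.05, 7 were higher and 0 lower, and in 5 the libraries did not overlap. The higher shares over all genes were 1.83% and 0.487%. The count of 7 ranged from 3 (without CD replicate 3) to 9 (without CD replicate 2 or 4) with 1 library left out. Leaving out the 3 libraries gave 24 higher and 9 lower, with a median of 0.17. Fabp1, the liver fatty acid binding protein, was 7174, 7235, 6007, 6196 and 7723 in CD and 10393, 8433, 8471, 8934 and 9472 in WDF (0.41 ± 0.14), with no overlap. Hadhb, a subunit of the mitochondrial trifunctional protein of beta-oxidation, was 3881, 4028, 4115, 3959 and 4259 in CD and 5037, 5248, 4547, 4977 and 4984 in WDF (0.29 ± 0.10). The step in Hadhb was small, 1.22-fold, yet larger than the spread in either group. Acat1, the mitochondrial thiolase of ketone body metabolism, was 7197 ± 928 against 8917 ± 618 (n = 5 each, 0.32 ± 0.12) and did not overlap, with 8568 as the lowest WDF value and 7847 as the highest CD value. Angptl4, a secreted inhibitor of lipoprotein lipase and a PPAR target, was 601 ± 131 against 850 ± 146 (n = 5 each, 0.51 ± 0.19). Its groups met between 721 and 751.

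Cpt1a and other enzymes of the pathway were not separated. Cpt1a, which admits long-chain fatty acids to mitochondria, was 1350, 875, 634, 535 and 733 in CD and 1017, 747, 851, 1112 and 1144 in WDF (log2 difference 0.30 ± 0.29). Acadm, the dehydrogenase of medium-chain fatty acids, had a difference of 0.00 ± 0.19. Acadvl, its very-long-chain counterpart, was 0.37 ± 0.19 higher, with its highest value (6565) in CD replicate 4 and at most 3343 in the other controls. With a weight for each library the Acadvl difference was 0.58 ± 0.12, with an adjusted p of 0.0166 by limma. Eci1, an isomerase of the same route, was 754 ± 101 against 889 ± 84.7 (n = 5 each, 0.24 ± 0.11). All of these groups overlapped.

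On lipid droplets, the lipolysis cofactor and the coat proteins went in different directions. Of 14 genes listed, 11 were tested, 6 of them higher and 5 lower, with a median log2 difference of 0.03, from -0.082 (without WDF replicate 2) to 0.14 (without CD replicate 4) with 1 library left out. It was 0.19 without the 3 libraries named above and -0.096, with 4 higher and 7 lower, without the 2 that held lung message. The other 3 were Cidea and Cidec, which were in the table at values too low for the filter, and Plin1. Abhd5, which activates the triglyceride lipase encoded by Pnpla2, was 4365, 3596, 3372, 2076 and 3504 in CD and 1830, 2211, 1718, 1939 and 1527 in WDF (-0.84 ± 0.19). Without CD replicate 4 the Abhd5 difference was -1.01 ± 0.16, with an adjusted p of 0.0341 by limma. Pnpla2 itself was 392 ± 29.5 against 368 ± 41.4 (n = 5 each, -0.09 ± 0.12), and its inhibitor G0s2 was 0.05 ± 0.28 higher. Plin4, a droplet coat protein, was 18.1, 11.7, 6.52, 24.2 and 21.3 in CD and 40.4, 37.2, 26.6, 34.9 and 33.8 in WDF, low values that did not overlap (1.15 ± 0.39). Plin5, which ties droplets to mitochondria, averaged 346 ± 123 against 516 ± 62.5 (n = 5 each, 0.65 ± 0.29). Plin2, the main droplet coat of hepatocytes, was 3217 ± 745 against 3098 ± 614 (n = 5 each), with no difference beyond the spread, and Hilpda was 0.32 ± 0.19 higher with overlap.

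For lipoproteins, 15 of 21 genes were higher in WDF and 6 lower, with a median log2 difference of 0.19 (15 and 6, with 0.21, without the 3 libraries named above); at an unadjusted p under 0.05, 3 were higher and 2 lower. Those counts were 8 and 3 without CD replicate 4, 1 and 3 without CD replicate 3, and 8 and 5 with a weight for each library. Apoa5, an activator of triglyceride clearance, was 328, 385, 209, 177 and 236 in CD and 606, 795, 1886, 891 and 1431 in WDF, 4.20-fold higher by the means with no overlap (2.00 ± 0.75). CDF males averaged 1161 ± 1017 for Apoa5 and WD males 940 ± 1040 (n = 5 each), so the other male groups spread far more than the 2 compared here. Pltp, the phospholipid transfer protein, went the other way, at 1800, 1324, 781, 943 and 1517 in CD and 437, 853, 554, 496 and 562 in WDF (-1.11 ± 0.35). Only WDF replicate 2 reached the CD range in Pltp. Lipc, hepatic lipase, was 0.38 ± 0.15 higher and Apoe, the ligand for remnant uptake, 0.33 ± 0.13 higher, while Abcg8, a subunit of a sterol exporter, differed by -0.91 (66.9 ± 30.4 against 32.0 ± 5.45, n = 5 each). The core assembly genes Apob and Mttp differed by 0.19 ± 0.17 and -0.09 ± 0.18, and Apoc3 and Apoa4 by 0.59 ± 0.47 and 0.35 ± 0.73, each with overlap.

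**Figure D3:**
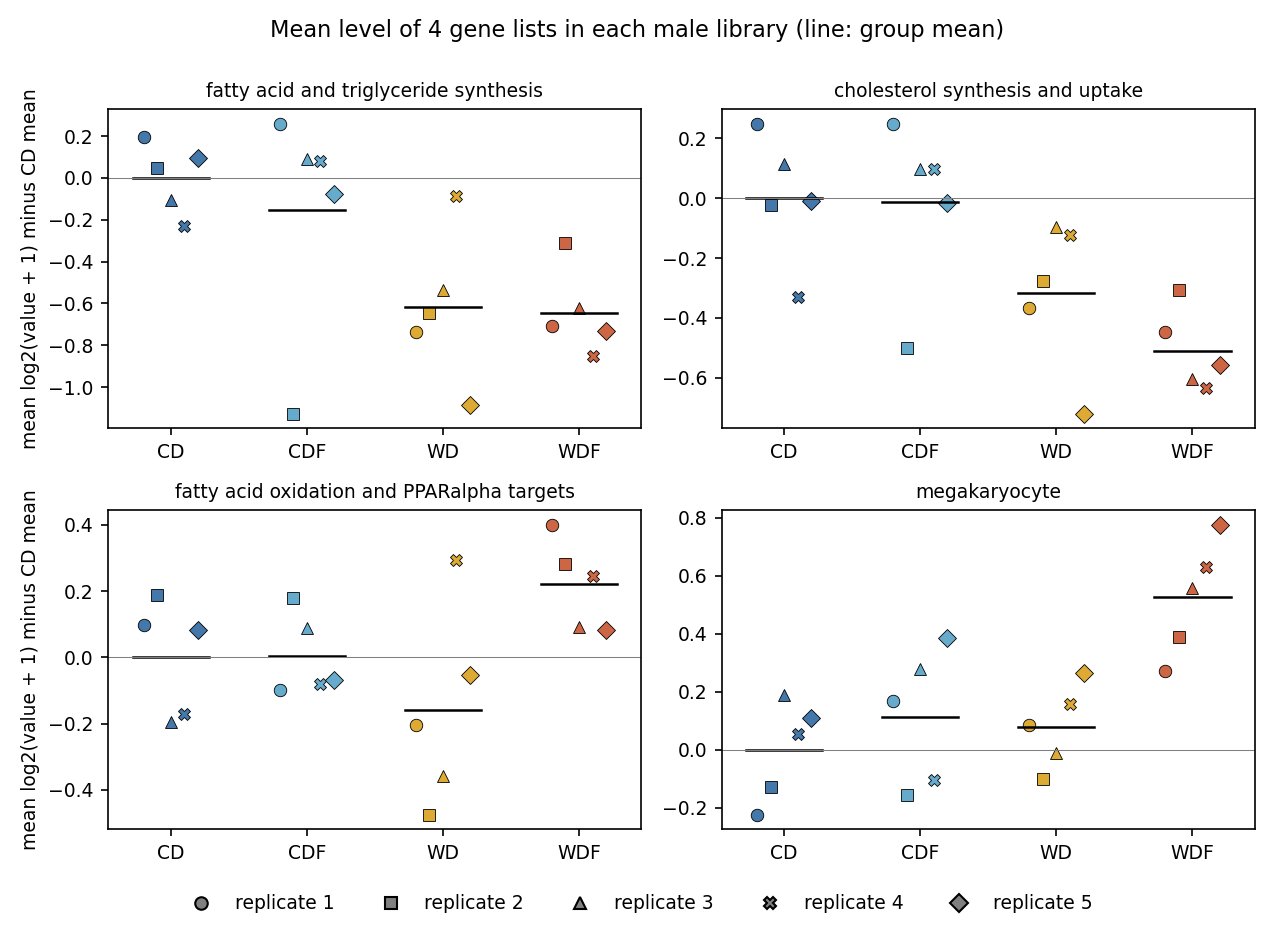
Mean log2(value + 1) over the tested members of 4 gene lists in each male library (y axis, relative to the CD mean), for CD, CDF, WD and WDF, with the group mean as a line. The WDF libraries lie between -0.85 and -0.31 for fatty acid and triglyceride synthesis and between 0.27 and 0.78 for the megakaryocyte genes, where CD libraries lie between -0.23 and 0.19 and between -0.22 and 0.19.

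Among the genes on the higher side was Igfbp2, whose secreted product binds insulin-like growth factors. Igfbp2 was 3627, 3831, 2141, 7075 and 4351 in CD and 8359, 10163, 12706, 10741 and 18522 in WDF. No library overlapped, and the means differed 2.88-fold (log2 difference 1.57 ± 0.42, adjusted p = 0.703 by limma). The WD and CDF males averaged 4608 ± 3715 and 4180 ± 1296 for Igfbp2 (n = 5 each), close to CD, and the difference between the folic acid effects at 45% and at 10% fat was 1.68 ± 0.59, with an adjusted p of 0.268 by limma. Igf2, the main fetal growth factor of the family, was 45184, 47511, 39071, 38082 and 57928 in CD and 62032, 52944, 63080, 49358 and 73209 in WDF (0.40 ± 0.14). CD replicate 5 was the one control above the lowest Igf2 values in WDF. Igf1 was 282 ± 89.8 against 341 ± 111 and Igfbp1 24239 ± 5273 against 29139 ± 4650 (n = 5 each), both with overlap. The binding proteins Igfbp3, Igfbp4, Igfbp5 and Igfbp7 differed by 0.24, -0.17, -0.74 and 0.29 on the log2 scale, each with overlap. Of the 15 genes of this axis 11 were higher, with a median of 0.20, which was 0.04 without CD replicate 4 and 0.14, with 9 higher and 6 lower, without the 3 libraries named above.

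Genes of platelets and their parent cells were higher in WDF throughout the list. All 16 of 16 tested megakaryocyte genes were higher, with a median log2 difference of 0.56, 8 of them at an unadjusted p under 0.05, and 1 without overlap. Among all genes tested, 1.83% were higher at that level and 0.487% were higher without overlap. The 8 became 4 without WDF replicate 5, 5 without WDF replicate 4 and 11 without CD replicate 4. Without the 3 libraries named above, 15 were higher and 1 lower, with a median of 0.70 and 12 at an unadjusted p under 0.05. The summed level of the 16 genes ranged from 6510 to 11867 in CD and from 9355 to 13745 in WDF. Gp9, part of the platelet receptor for von Willebrand factor, was 119, 126, 166, 179 and 196 in CD and 224, 215, 233, 209 and 302 in WDF (0.60 ± 0.17), and was the member without overlap. Gp5 of the same receptor complex was 162, 170, 228, 314 and 212 in CD and 256, 338, 319, 307 and 349 in WDF (0.56 ± 0.17), with CD replicate 4 inside the WDF range.

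Treml1, a receptor stored in platelet granules, was 239 ± 71.6 against 349 ± 49.0, and Clec1b, the platelet receptor for podoplanin, was 256 ± 54.2 against 342 ± 66.6 (n = 5 each). Thbs1, the adhesive protein thrombospondin, was 1682 ± 255 against 2568 ± 805 (n = 5 each, log2 difference 0.57 ± 0.24). Pf4, the platelet chemokine, was 1117 ± 341 against 1441 ± 208 (n = 5 each, 0.40 ± 0.21). Itga2b, the platelet integrin subunit, was 435, 906, 1349, 4176 and 819 in CD and 1143, 2522, 2245, 1544 and 2134 in WDF. Its value in CD replicate 4 was the highest of all 10, and the difference was 0.71 ± 0.45. Vwf, which endothelium also makes, was likewise highest in CD replicate 4 (1078) and differed by 0.47 ± 0.29. Alox12, the platelet lipoxygenase, is outside the list and was 270 ± 30.2 in CD and 380 ± 27.7 in WDF (n = 5 each), with no overlap (0.49 ± 0.14).

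Other blood cell lists gave smaller or opposite medians. Of 30 tested erythroid genes (31 listed), 24 were higher with a median log2 difference of 0.11 and 0 at an unadjusted p under 0.05 by limma; Gata1, the factor common to red cells and megakaryocytes, differed by -0.01 ± 0.23, Klf1 by 0.08 ± 0.15, Alas2 of heme synthesis by 0.12 ± 0.30, the anion exchanger Slc4a1 by 0.12 ± 0.16 and the adult globin Hbb-bt by 0.11 ± 0.30. The membrane skeleton genes Ank1, Epb41 and Epb42 and the carbonic anhydrase Car2 differed by 0.28, 0.24, 0.40 and 0.26, each with overlap. The summed level of 16 macrophage genes ranged from 23201 to 28084 in CD and from 23279 to 28238 in WDF. Marco, a scavenger receptor in that list, was 1123, 1081, 1544, 1949 and 1022 in CD and 1334, 2188, 2794, 2160 and 2949 in WDF (0.76 ± 0.20), with overlap. B cell precursor genes were lower in 14 of 14 tested, with a median of -0.32 and 1 at an unadjusted p under 0.05. Without the 3 libraries named above 12 of the 14 were lower, with a median of -0.21. The receptor genes Cd79a, Cd79b, Igll1 and Vpreb3 and the recombinase Rag2 differed by -0.31, -0.45, -0.33, -0.33 and -0.53 on the log2 scale, each with overlap. Vpreb1, of the precursor receptor, was 612 in CD replicate 4 and at most 260 in the other controls.

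Transcripts of the mitochondrial genome were higher in 13 of 13 cases, with a median log2 difference of 0.37 and 1 gene at an unadjusted p under 0.05 (3 without CD replicate 4 and 6 without WDF replicate 2). With the 3 libraries left out, 12 were higher and 1 lower, with a median of 0.51. The gene at that level in the 20-library fit, mt-Co3, a subunit of cytochrome c oxidase, was 12760, 26418, 22244, 51908 and 38958 in CD and 54965, 45600, 66597, 61043 and 63512 in WDF (1.08 ± 0.28). WDF replicate 2 lay below CD replicate 4, and all other WDF libraries lay above all CD libraries. Without the 3 libraries mt-Co3 differed by 1.65 ± 0.25, with an adjusted p of 0.0392 by limma. mt-Co1, another subunit of the same enzyme, was 73340, 70480, 54565, 23008 and 62084 in CD and 136658, 32076, 62102, 74287 and 121597 in WDF. mt-Co1 was thus lowest in CD replicate 4, where mt-Co3 was highest among controls, and its highest values were in WDF replicates 1 and 5 (0.52 ± 0.40). mt-Nd1, mt-Cytb, mt-Co2 and mt-Atp6 differed by 0.37, 0.45, 0.36 and 0.49 on the log2 scale with overlap in each. The nuclear genome holds copies of mitochondrial sequence, so the share of reads given to each of these genes is uncertain. Mitochondrial transcripts made up 1.18 to 3.03% of the WDF totals and 1.11 to 1.67% of the CD totals.

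Nuclear genes of oxidative phosphorylation were higher in 29 of 31 cases by small amounts, with a median log2 difference of 0.13 and 1 at an unadjusted p under 0.05 (27 and 4, with 0.22, without the 3 libraries named above). Without the 2 libraries with lung message alone, 15 were higher and 16 lower, with a median of -0.0023, and with 1 library left out the median ran from 0.039 (18 higher, without CD replicate 1) to 0.26 (29 higher, without CD replicate 4). The balance of this list thus rested on which libraries were read. Over 14770 genes, the Spearman correlation of exonic length with a gene's deviation in a library from its mean log2(value + 1) over the 20 male libraries was 0.204 in CD replicate 1, -0.217 in CD replicate 4 and -0.279 in WDF replicate 2. The part of transcript length in the values of this list was not tested. Cox6c was 1668, 2071, 2069, 3092 and 2077 in CD and 2755, 3132, 2982, 2542 and 3024 in WDF (0.42 ± 0.20), with CD replicate 4 the one control in the WDF range. Sdhd, Sdhb and Uqcrfs1 were 0.27, 0.24 and 0.25 higher, Ndufs1 0.19, Cox4i1 0.16 and Sdha 0.02, with overlap in each.

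Markers of bile duct cells and mesothelium were lower in WDF. Of 12 bile duct genes, 10 were lower, with a median log2 difference of -0.51 and 6 at an unadjusted p under 0.05, and of 10 mesothelium genes 9 were lower, with a median of -0.78 and 4 at that level. Among all genes tested, 2.41% were lower at that level. The count of 6 became 2 without CD replicate 3 and 3 without WDF replicate 1 or 5. That of 4 became 2 without CD replicate 5, WDF replicate 1 or WDF replicate 5, 7 without WDF replicate 4 and 8 without WDF replicate 2. Leaving out the 3 libraries moved these medians to -0.73 (10 lower) and -1.02 (9 lower). Epcam, an adhesion protein of epithelial cells, was 115, 72.2, 155, 72.6 and 124 in CD and 25.7, 77.2, 35.6, 33.2 and 22.6 in WDF (-1.53 ± 0.40). The Epcam value in WDF replicate 2, the library with 5978 for Sftpc, was well above the next WDF library, at 35.6. Cldn7 and Krt7, epithelial genes too, were also highest there among WDF libraries, at 143 and 372. The part that other tissue in a library has in these values was not tested. Krt19, which both cell types share, was 119, 159, 1082, 113 and 320 in CD and 42.1, 243, 95.6, 95.8 and 11.9 in WDF (-1.85 ± 0.64), with CD replicate 3 far above the other controls.

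Krt8 and Krt18, which hepatocytes express as well, averaged 3723 ± 986 and 3092 ± 614 in CD and 2429 ± 476 and 2315 ± 396 in WDF (n = 5 each). Sox9, a bile duct transcription factor, was 0.40 ± 0.23 higher, 1 of the 2 members on that side. Upk3b, a mesothelial membrane protein, was 443, 457, 539, 504 and 618 in CD and 215, 594, 277, 399 and 86.8 in WDF (-0.95 ± 0.34), again with WDF replicate 2 highest in its group. Msln, mesothelin, was 415 ± 236 against 245 ± 149 (n = 5 each, -0.81 ± 0.39), and Wt1 differed by -0.42 ± 0.39. Upk1b, Lrrn4 and Aldh1a2 differed by -0.75, -0.67 and -1.04 on the log2 scale, with overlap. The summed level of the 12 bile duct genes ranged from 8699 to 14037 in CD and from 6169 to 9391 in WDF, and that of the 10 mesothelium genes from 1621 to 3301 and from 805 to 2245. No bile duct or mesothelium marker was at 0 in any of the 10 libraries.

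**Figure D4:**
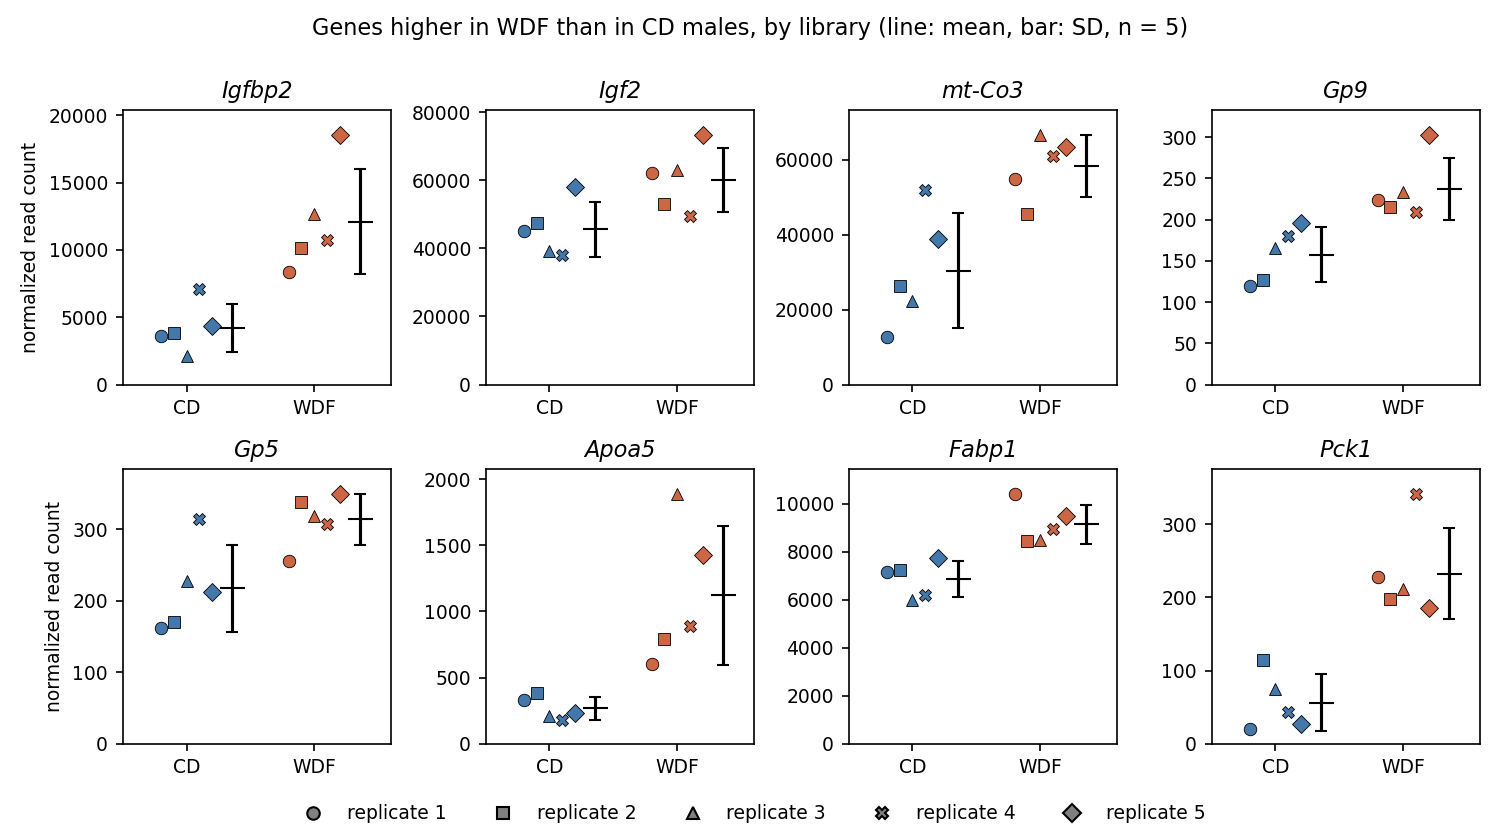
Normalized read counts (y axis, from 0) of 8 genes with higher means in WDF, in each of the 5 CD and 5 WDF male libraries, with the mean as a line and the SD as a bar; the symbol shows the replicate number. Igfbp2, Gp9, Apoa5, Fabp1 and Pck1 show no overlap, while Igf2, mt-Co3 and Gp5 do.

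The remaining genes with the smallest p were of mixed function. Jph1, a junctophilin that links membranes in muscle cells, had the smallest p of all at low values: 22.3, 19.7, 19.7, 29.7 and 23.6 in CD and 5.83, 7.44, 11.6, 4.72 and 8.63 in WDF (log2 difference -1.51 ± 0.26, adjusted p = 0.162 by limma). WD and CDF males averaged 17.9 ± 3.89 and 18.2 ± 4.47 for Jph1 (n = 5 each), nearer to CD than to WDF. Mettl6, a tRNA methyltransferase, was 400, 397, 485, 536 and 354 in CD and 250, 224, 294, 238 and 314 in WDF (-0.71 ± 0.15), with no overlap. Gpt2, the mitochondrial alanine transaminase, was 1060 ± 112 against 656 ± 181 and Slc16a13, of the monocarboxylate transporter family, 44.7 ± 1.77 against 27.3 ± 4.80 (n = 5 each), both without overlap. Npas2, a partner in the circadian clock, was 50.1 ± 9.54 against 29.2 ± 6.27, Lysmd2 was 74.4 ± 9.76 against 40.1 ± 10.1, and Lrp2, the endocytic receptor megalin, was 33.1 ± 7.31 against 15.7 ± 7.05 (n = 5 each). The pseudogene Rpl35a-ps3 was listed at 0 in all 5 WDF libraries and in CD replicate 5, and at 131 to 462 in the other CD libraries. As a copy of a ribosomal protein gene its reads may be shared with that gene, and its value is uncertain.

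On the higher side stood Rgs1, a brake on G protein signalling, at 13.6, 14.2, 10.7, 7.85 and 14.0 in CD and 20.3, 24.0, 41.6, 84.1 and 49.1 in WDF (1.63 ± 0.42), with no overlap. Agxt, which clears glyoxylate in hepatocytes, was 318, 554, 426, 1184 and 394 in CD and 1201, 1302, 1018, 1065 and 1123 in WDF (1.15 ± 0.32). Only CD replicate 4 of the controls reached the WDF values of Agxt. Wif1, a secreted inhibitor of Wnt proteins, was 22.4 ± 14.2 against 61.7 ± 30.2, Ripor3 63.2 ± 20.9 against 109 ± 17.4, and Osbpl9, of the oxysterol-binding family, 528 ± 29.8 against 687 ± 59.6 (n = 5 each). Fam47e, 1810053B23Rik and Gm13421 were 1.86, 2.20 and 3.03-fold higher by the means, the last from values of at most 13.9.

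Key genes of glucose metabolism and of lists for other functions, cell types and tissues were read as well. Over 26 further lists, 66 key members were tested, and 38 were higher and 28 lower, with a median log2 difference of 0.06; 3 were higher and 1 lower at an unadjusted p under 0.05. Over all genes 1.83% were higher and 2.41% lower at that level. The 3 higher key members, Pck1, Nr0b2 and Cyp2e1, were picked out after their values were seen. Pck1, the gluconeogenic enzyme that the liver switches on around birth, was 19.6, 114, 75, 43.9 and 27.2 in CD and 228, 198, 211, 341 and 185 in WDF, 4.16-fold higher by the means. The Pck1 libraries did not overlap (2.28 ± 0.91, adjusted p = 1.00 by limma). Nr0b2, a repressor of bile acid synthesis, was 9.11 ± 3.12 against 24.7 ± 10.3, and Cyp2e1, an ethanol-oxidising cytochrome, 533 ± 228 against 1204 ± 382 (n = 5 each).

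Genes of the folate system were near 0 as a group. Of 27 carriers and enzymes, all tested, 13 were higher and 14 lower, with a median log2 difference of 0.00; 1 was lower and 0 higher at an unadjusted p under 0.05. Aldh1l2, a mitochondrial enzyme that releases folate-bound carbon as CO2, was that one, at 195, 131, 127, 69.4 and 104 in CD and 96.6, 44.6, 61.4, 86.1 and 37.8 in WDF (-0.94 ± 0.30). The groups overlapped through CD replicate 4. The carrier Slc19a1 (-0.04 ± 0.14), Mthfd1 (0.06 ± 0.11), Mthfd2 (-0.05 ± 0.20) and Aldh1l1 (0.01 ± 0.15) differed by less than their SE. Mtr, Atic and the receptor Folr1 differed by 0.29, -0.22 and -0.67 on the log2 scale, each with overlap. In the methionine, choline and transsulfuration list 10 of 15 tested genes (16 listed) were higher, with a median of 0.06 and 0 at an unadjusted p under 0.05 by limma. Bhmt, which uses betaine to remake methionine, was 6078, 5549, 2169, 2354 and 5757 in CD and 9292, 5534, 3376, 5276 and 7067 in WDF (0.54 ± 0.38), and Mat1a, which makes S-adenosylmethionine, was 10412 ± 1696 against 7987 ± 1744 (n = 5 each, -0.40 ± 0.28). Gnmt and Cbs differed by 0.06 ± 0.14 and -0.03 ± 0.12, and Cth, Gamt, Chdh and Sardh by 0.31, -0.30, 0.39 and 0.22, with overlap.

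Genes of cell division were also near 0 in this comparison. Of 27 DNA replication genes 16 were higher and 11 lower, with a median log2 difference of 0.05, and of 26 mitosis genes 20 were higher and 6 lower, with a median of 0.07; in neither list did any gene reach an unadjusted p under 0.05 by limma. Mcm6, a subunit of the replicative helicase, was 2293 ± 330 against 2237 ± 187, Pcna, the sliding clamp, 4131 ± 592 against 4072 ± 220, and Ccnb1, the mitotic cyclin, 1055 ± 314 against 1068 ± 186 (n = 5 each). Mki67, a marker of cycling cells, was 8909, 9563, 10703, 8146 and 7867 in CD and 10415, 9207, 10994, 10061 and 17826 in WDF (0.34 ± 0.19), with the highest value in WDF replicate 5. The replication genes Rrm2, Gins2, Gins3, Tk1, Pole and Ccne2 differed by 0.07, 0.29, 0.21, 0.27, 0.31 and -0.26 on the log2 scale. The mitosis genes Top2a, Aurkb, Mad2l1, Cdk1 and Nek2 differed by 0.21, 0.22, 0.15, 0.13 and 0.12, and the groups overlapped in every gene named in this pair of lists. The medians with the fat change alone (WD against CD) were 0.29 and 0.33, and with folic acid alone (CDF against CD) 0.12 and 0.14.

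Secreted proteins of hepatocytes were close, while more of the complement and clotting factors they make were higher than lower. Of 19 secreted proteins 13 were higher, with a median log2 difference of 0.07 and 0 at an unadjusted p under 0.05 by limma; Alb differed by -0.02 ± 0.19, the fetal Afp by -0.20 ± 0.18 and Ttr by -0.08 ± 0.16, while Trf and Rbp4, carriers of iron and of retinol, differed by 0.27 ± 0.15 and 0.29 ± 0.16. Vtn, Gc and Apoh differed by 0.30, -0.17 and 0.16 on the log2 scale. Of 22 tested complement and coagulation genes (23 listed) 18 were higher, with a median of 0.15 and 6 at an unadjusted p under 0.05 (1.83% of all genes were higher at that level), which became 2 without CD replicate 3; without the 3 libraries named above, 13 were higher and 9 lower. Cfb, of the alternative complement pathway, was 11315, 12510, 10091, 12530 and 13888 in CD and 16026, 13672, 15015, 15558 and 16022 in WDF (0.34 ± 0.14), with CD replicate 5 just above the lowest WDF value. F7, Proc and C8a were 0.40, 0.27 and 0.54 higher on the log2 scale, and C3, F9 and Serpinc1 differed by 0.09 ± 0.20, 0.25 ± 0.30 and 0.10 ± 0.11.

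The male groups with 1 change show where each list stood; these comparisons share libraries with the one above, so their values are set side by side only. For fatty acid and triglyceride synthesis the medians were -0.48 for WD against CD, -0.13 for CDF against CD and -0.46 for WDF against CD. For cholesterol synthesis and uptake they were -0.37, -0.04 and -0.55, and for the megakaryocyte genes 0.08, 0.10 and 0.56. For fatty acid oxidation they were -0.11, 0.08 and 0.18, for nuclear oxidative phosphorylation -0.11, -0.11 and 0.13, and for mitochondrial transcripts 0.06, 0.21 and 0.37. Of the 2 single changes, the lipid synthesis lists lay further from 0 with fat, and the megakaryocyte list was close to 0 with either change alone. Differences between these list medians were not tested. Bile duct genes had medians of -0.63, -0.35 and -0.51, and mesothelium genes -0.47, -0.67 and -0.78. Among single genes, Me1 differed from CD by -1.14 in WD and -0.10 in CDF, Acly by -0.52 and -0.06, Sqle by -0.27 and 0.01, and Gp9 by 0.04 and 0.16. The test of whether the folic acid effect differed between the fat levels called 0 of 14783 genes past an adjusted p of 0.05 by limma, with 1062 above 0 (7.18%) and 1065 below 0 (7.2%) at an unadjusted p under 0.05. WD against CD and CDF against CD also had 0 genes past the adjusted threshold by limma. At an unadjusted p under 0.05, WD against CD had 560 genes higher (3.79%) and 540 lower (3.65%), and CDF against CD had 276 higher (1.87%) and 351 lower (2.37%).

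**Figure D5:**
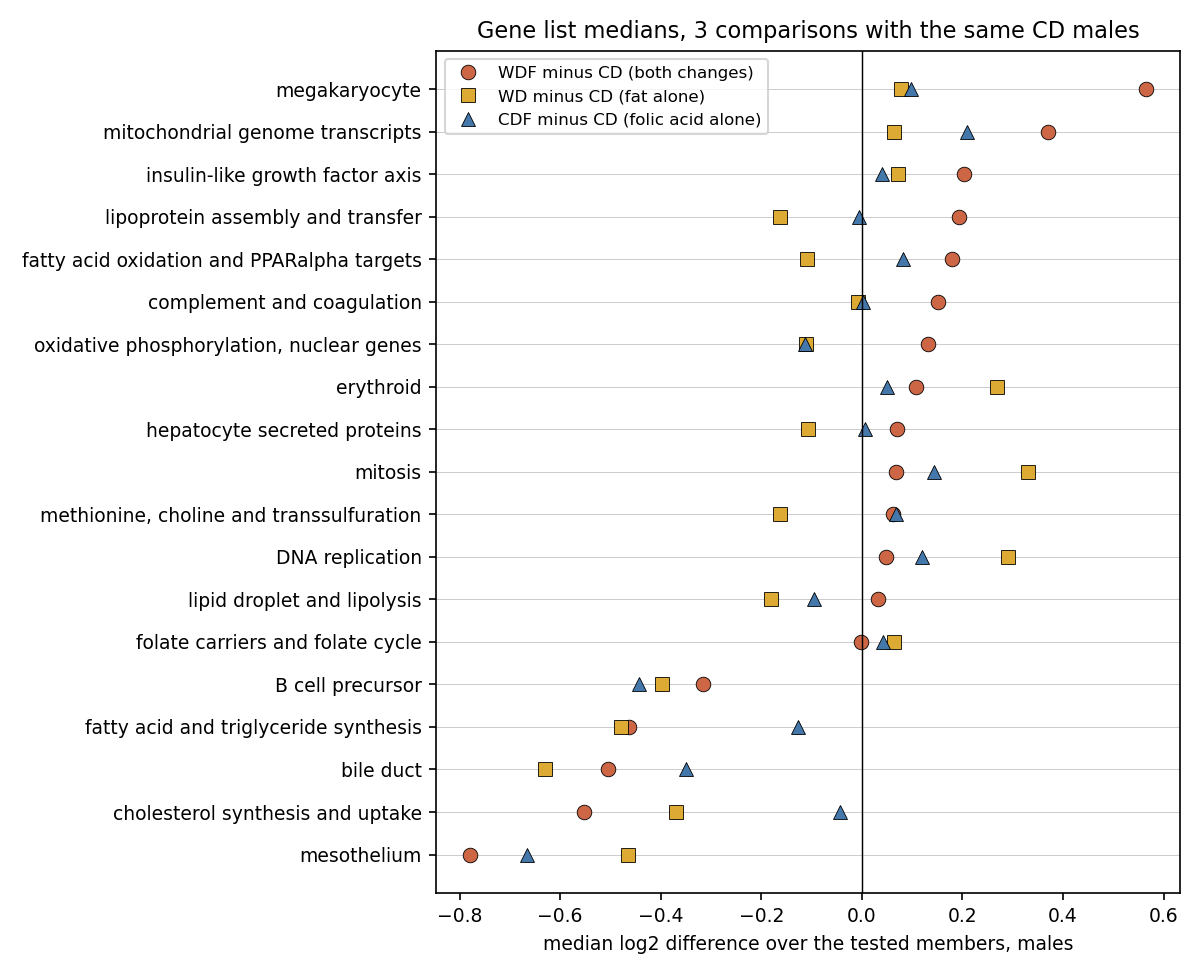
Median log2 difference over the tested members of 19 gene lists (x axis) for WDF, WD and CDF males, each against the same 5 CD males. Cholesterol synthesis and uptake lies at -0.55 with both changes, -0.37 with fat alone and -0.04 with folic acid alone, and the megakaryocyte genes at 0.56, 0.08 and 0.10.

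Female livers on the same 2 diets are separate libraries (5 WDF; 4 CD, without 1 library that held little albumin message). There 24 of 26 fatty acid and triglyceride synthesis genes were lower, with a median log2 difference of -0.19, where 51% of all 15377 genes tested were below 0. Before adjustment, 0 of these 26 had a limma p below 0.05 in females, while 13 did in males, all lower. Cholesterol synthesis and uptake genes were lower in 14 of 25 cases with a median of -0.01. Fatty acid oxidation genes and PPARalpha targets were split, 16 higher and 17 lower, as were mitochondrial transcripts, 7 higher and 6 lower, each with a median of 0.00, and of the lipid droplet genes 3 were higher and 8 lower. All 16 megakaryocyte genes were higher, with a median of 0.36, and bile duct and mesothelium genes were lower in 11 of 12 and 10 of 10 cases, with medians of -0.62 and -0.85. Few of these genes had a limma p below 0.05 before adjustment: 1 megakaryocyte gene (higher), 2 bile duct genes and 2 mesothelium genes (lower). Over all 15377 genes tested in females, 208 were higher and 259 lower at that level. The male counts for these 3 lists were 8, 6 and 4, in the same directions. Lung markers were lower in 13 of 13 cases and heart muscle markers in 10 of 10, with medians of -2.31 and -1.09, and their part in the bile duct and mesothelium values was not tested. Erythroid genes were higher in 30 of 30 cases, with a median of 0.39, above that of the megakaryocyte list. Mitosis genes were higher in 26 of 26 cases, with a median of 0.22. Me1 and Acss2 differed by -0.68 and -0.56 in females, Sqle by -0.01 and Igfbp2 by 0.53. Whether the WDF against CD difference itself differed between males and females was tested gene by gene by limma. A fit to all 40 libraries put back the female CD library with little albumin message. In it 0 of 15598 genes passed an adjusted p of 0.05 (smallest 0.982), with 203 at an unadjusted p under 0.05. The fit to 38 libraries, without that library and a female CDF library, gave the female values above. It also called 0 of 15377 genes, with 164 at an unadjusted p under 0.05. The lists were not tested for a difference between the sexes.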

How the data were processed

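RNA from fetal liver was made into directional poly(A) libraries and read as paired ends of 43 nt, per the labels' protocols. The authors deposited 1 table of normalized signal per gene. That these are read counts divided by a size factor per library is read from the values, which are not whole and whose recomputed median-ratio factors are near 1; the counting rule is not given in the sources used here. Trimmomatic 0.39, STAR 2.7.3a, Salmon 1.3.0, DESeq2 1.24 and the mm10 build are named, with no role or order, per the submitters' processing notes. Low values fell on whole steps in only 28.4 to 57.8% of cases (tolerance 0.1), so reads were not recovered and no count test was run; depth is known only as the normalized totals. The authors' own comparison tables were not used here.

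The tested set was the 14783 of 20593 genes that reached 10 in 5 or more of the 20 male libraries. limma 3.58.1 in R 4.3.3 was fitted to log2(value + 1), with 1 mean per group and robust, trended moderation, and p-values were adjusted over all genes tested by Benjamini-Hochberg. Adding 1 shrinks the fold of low genes.

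Genes named are the 15 with the smallest p in each direction, the key members of the described lists, and up to 4 further members of each with the smallest p; Acat2, Pck1, Nr0b2 and Cyp2e1 were added after their values were seen. Some named genes are not reported here. Members and gene lists were chosen with earlier results of these data known. The column of 1 female library lacks the letter for sex and was matched by its remaining name. Same-numbered WDF and CD libraries had deviations that correlated between -0.259 and 0.357, so the numbers were not taken as pairs. Promoter windows come from RefSeq. Alternatives changed the libraries, scaling, filter, pseudocount, weights, moderation and test.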

Additional observations from a re-analysis of the deposited data

Results flagged for a closer look

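Each group of 5 named-gene values was searched for a sample far from the other 4, on the log2 scale. Of 334 such groups 29 had one, and chance alone gives about 1 in 20 groups. In 12 of the 29 the sample was CD replicate 4, the library apart on the first principal component.

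CD replicate 4 was high for Acadvl (6565, with the other controls up to 3343), Cox4i1 (18883, up to 7577), Plin2 (4513, up to 3021), Slc19a1 (178, up to 149), Vpreb1 (612, up to 260) and Vtn (48854, up to 29385). It was low for Aurkb (281, with the other controls from 490), Ccnb1 (515, from 1069), Epb41 (3405, from 5477), Epb42 (589, from 1802), Igf1 (132, from 270) and mt-Co1 (23008, from 54565).

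CD replicate 3 was low for Aldh1l1 (1611, with the others from 2243), Eci1 (583, from 743) and Serpinc1 (15321, from 17750). The pseudogene Rpl35a-ps3 was listed at 0 in CD replicate 5 alone among controls.

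WDF replicate 5 was high for Ank1 (4877), Clec1b (459), Gins3 (114), Mki67 (17826) and Slc4a1 (35376), and low for Atic (641) and Fam47e (74.4). WDF replicate 1 was high for Acat1 (10010) and Mttp (2810) and low for Treml1 (267) and Vwf (424). WDF replicate 2 was high for Cyp51 (4876, with the others up to 3625), and WDF replicate 3 was low for Rag2 (7.38).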

How the results depend on the processing

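In the 20-library fit 0 genes passed. Of single libraries left out, 0 genes were called higher each time and 0 to 2 lower: 2 without CD replicate 4 (Abhd5 and Sqle) and 1 without CD replicate 5 (Rpl35a-ps3). With weights per library 131 genes were higher and 160 lower. Without the 2 libraries with lung message 1 was higher (Usf2-ps1), and without 3 libraries, a setting chosen after seeing the data, 2 were higher and 1 lower. One gene was lower, 1 each, with 38 libraries (Jph1), with the 10 libraries alone (Chrna4, -2.18) and with no trend or robust moderation (Jph1). The cause was not tested. Genes at an unadjusted p under 0.05 numbered 628, from 395 (without WDF replicate 5) to 1532 (without CD replicate 4), and 2985 with weights, 920 of 20593 with no filter and 263 with all 40 libraries. Other scalings, pseudocounts, filters and limma-voom called 0.

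The median of the growth factor axis was 0.20, between 0.039 (without CD replicate 4) and 0.23 with 1 library left out, and 0.040 with weights. Igf1 was -0.071 and Gins2 -0.013 with weights, and Igfbp7 ranged from -0.025 (without CD replicate 4) to 0.43 with 1 library left out. The other 18 described list medians kept within 1 SD of the replicate spread.

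With the replicate number as a block 0 genes passed by limma and 581 had an unadjusted p under 0.05. The list medians could not change under this block, since each number occurs once in every male group. Only 1 of the 5 same-number correlations was above 0.1.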
